A study of Mus musculus with 6 samples.

Results

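Monocytes of the nonclassical type that carry the transcript of Spic were described in mouse lung with and without acute myeloid leukaemia (AML), a blood cancer in which immature myeloid cells accumulate. A cell was taken as Spic-positive when it had at least 1 Spic UMI (a unique molecular identifier, the unit of counting) and passed a marker gate. The gate asked for 2 or more of the 8 nonclassical monocyte genes Ace, Treml4, Cd300e, Adgre4, Fcgr4, Eno3, Smpdl3b and Slc12a2. It also asked for no UMI of Cd79a, at most 1 UMI summed over Cd3e, Ncr1, Plet1 and Retnlg, and at most 2 UMIs summed over C1qa, C1qb and C1qc. By this rule 2533 of 71634 kept cells were Spic-positive, 2435 of them in AML lung and 98 in normal lung. Cells that passed the same gate with no Spic UMI, 19702 in all, are called Spic-negative and served as the comparison within each library. Spic, the gate genes and the genes the gate excludes chose the cells, so their levels are given as a description and were left out of the genes tested.

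The study made droplet libraries of the CD45-positive leukocytes of perfused, enzyme-digested mouse lungs, 3 from normal lung and 3 from AML-infiltrated lung. The labels give no strain, age or sex, do not name the model of leukaemia, and do not mark leukaemic cells. They leave unsaid whether each replicate is its own animal, and the p-values then reflect only the spread between these libraries, which may be technical. Total counts lay between 43913245 and 66513826 UMIs per library. AML replicate 3 was shallow, with 35391 barcodes and a median of 1068 UMIs per kept cell, against medians between 2811 and 10757 UMIs in the others. Libraries shared 2 to 118 cell barcodes per pair, and 1 barcode was Spic-positive in both libraries of a pair, AML replicates 1 and 2.

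Spic encodes an ETS-family transcription factor known from splenic red pulp macrophages, which clear aged red blood cells. There, haem from the engulfed cells releases Spic from the repressor Bach1, and monocytes that take up red cells can switch it on. The same haem signal induces Hmox1, the enzyme that opens the haem ring, and frees the transcription factor NRF2 to drive antioxidant genes. Nonclassical monocytes patrol the vessel wall and are the Ly6c-low class of blood monocytes. In the GRCm38 assembly Spic lies at chr10:88674772-88685015 on the minus strand, Il10 at chr1:131019845-131024974, Hmox1 at chr8:75093621-75100589, Tnip3 at chr6:65525313-65634040 and Hpgds at chr6:65117293-65144908.

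Spic-positive cells made up 33.1%, 17.7% and 5.06% of gated cells in AML replicates 1, 2 and 3, with exact binomial 95% intervals of 31.2% to 35.1%, 16.8% to 18.7% and 4.65% to 5.50%. In normal replicates 1, 2 and 3 they made up 5.07% (3.44% to 7.16%), 2.40% (1.56% to 3.52%) and 2.89% (2.10% to 3.88%). AML replicates 1 and 2 stood above every normal library, while the shallow AML replicate 3 lay within the interval of normal replicate 1. The AML mean was 18.6% ± 14.1 (SD, n = 3) and the normal mean 3.45% ± 1.42 (SD, n = 3). A cell's chance of a Spic UMI grows with its depth, and the median Spic-positive cell held 11066.5, 6126 and 1426 UMIs in the AML libraries and 12515, 9315 and 5486 in the normal ones. Thinning took the kept cells with at least 2000 UMIs, drew each down to 2000 UMIs and applied the gate anew. Shallower cells were left out, and the gated cells of AML replicate 3 went from 10416 to 2218. The shares became 13.4%, 10.9% and 5.37% in the AML libraries and 2.41%, 0.948% and 1.74% in the normal ones. At 1000 UMIs they were 9.58%, 6.80% and 3.94% against 2.51%, 0.621% and 0.887%. At equal depth, among the cells deep enough, all 3 AML libraries thus stood above all 3 normal libraries. At 1000 UMIs, however, AML replicate 3 still lay within the interval of normal replicate 1, 1.16% to 4.72%, on 9 of 358 gated cells. With 3 against 3 libraries the smallest exact permutation p is 0.1. The shares are a description, since the cells were singled out for the lung in which they are frequent. As a share of all kept cells, Spic-positive cells held 17.4%, 8.62% and 1.496% in the AML libraries and 0.848%, 0.454% and 0.437% in the normal ones. The intervals cover counting error only.

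**Figure D1:**
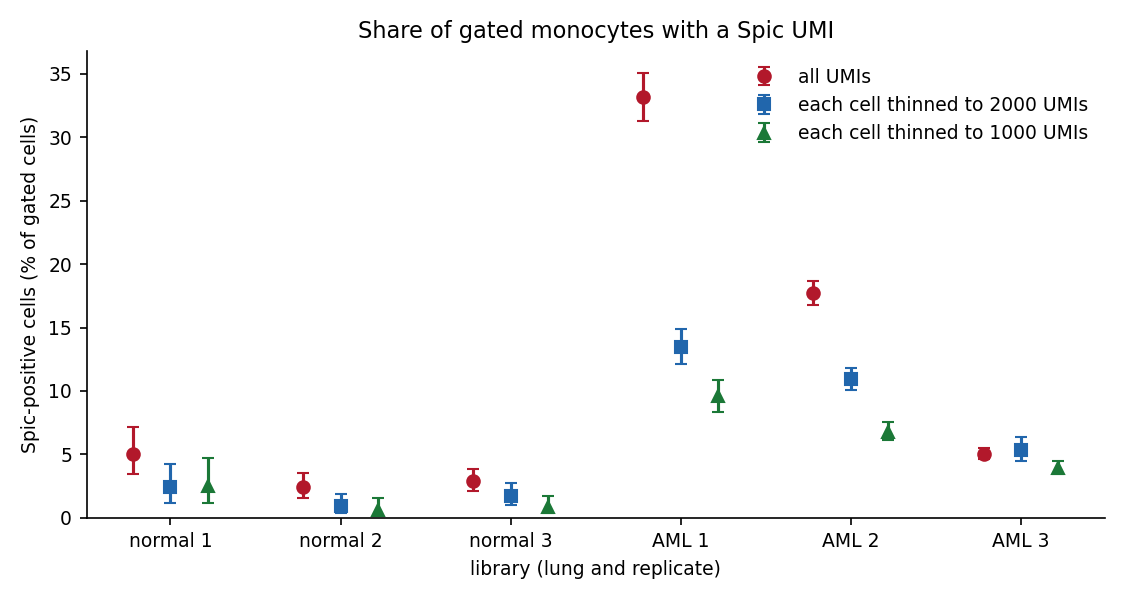
Share of gated monocytes with a Spic UMI (y axis, percent) in each library (x axis), with exact binomial 95% intervals. Shares are given with all UMIs or after thinning each cell of at least that depth to 2000 or 1000 UMIs. With all UMIs AML replicate 3, at 5.06%, sits level with normal replicate 1, at 5.07%, and after thinning to 2000 UMIs the AML libraries span 5.37% to 13.4% and the normal ones 0.948% to 2.41%.

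Spic UMIs were rare in T cells, B cells and classical monocytes. T cells, picked by 2 or more Cd3e UMIs and no gate gene, should lack Spic. They held a Spic UMI in 0 of 233, 0 of 384 and 0 of 137 cells of AML replicates 1, 2 and 3, at median depths of 8908, 5562 and 1866 UMIs, and in 0 of 201, 0 of 358 and 1 of 457 cells of the normal replicates. The 0 of 137 T cells allow a share of cells with a UMI of up to 2.19% in AML replicate 3. B cells, a lineage in which Spic expression is known, held a Spic UMI in 3 of 248, 4 of 716 and 0 of 109 cells of the AML replicates and in 0 of 367, 3 of 664 and 0 of 782 of the normal ones, a highest share of 1.21%. Classical monocytes, picked by 2 or more UMIs of Ly6c2, a UMI of Ccr2 and fewer than 2 gate genes, held 0 of 57, 3 of 384 and 1 of 574 in the AML libraries. Of all 3224 kept cells with a Spic UMI, the rule took 90.3%, 85.3% and 59.3% in AML replicates 1, 2 and 3 and 62.5%, 62.5% and 69.4% in the normal replicates. Just inside the gate, Spic-positive cells with exactly 2 gate genes numbered 2, 55 and 145 in the AML libraries, and just outside, those with 1 gate gene that passed the other limits numbered 2, 29 and 101. Spic-positive cells with 3 or more C1q UMIs, which the rule leaves out, numbered 15, 32 and 17. The median Spic-positive cell showed 8, 7 and 3 of the 8 gate genes in the AML libraries and 6.5, 6 and 5 in the normal ones, against 7, 6 and 3 and 6, 5 and 4 in Spic-negative cells, and a cell of AML replicate 3 thus passed the gate on fewer genes than a cell of the other libraries.

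A single Spic UMI was carried by 43.2%, 56.7% and 83.1% of Spic-positive cells in AML replicates 1, 2 and 3 and by 43.3%, 72.0% and 74.4% in the normal replicates, and the highest count in a cell was 35 UMIs, in AML replicate 1. Doublet scores marked 3, 9 and 4 Spic-positive cells in the AML libraries and none in the normal ones.

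The genes given with this population stood higher in Spic-positive than in Spic-negative cells of each AML library. Il10, the gene of an anti-inflammatory cytokine, stood at 229.7, 124.8 and 84.5 CPM (the summed UMIs of a class in a library, scaled to the same total for each class) in the Spic-positive cells of AML replicates 1, 2 and 3 and at 106.3, 40.1 and 25.7 CPM in Spic-negative cells. Hmox1 stood at 229, 593 and 201 CPM against 66.6, 75.2 and 70.7 CPM. Tnip3, which encodes a binding partner of the NF-kB inhibitor A20, stood at 307, 210 and 138 CPM against 172, 140 and 67.9 CPM. Hmox1 did not overlap between the classes, whereas for Il10 the 84.5 CPM of AML replicate 3 lay below the 106.3 CPM of Spic-negative cells in AML replicate 1. Hpgds, a haematopoietic prostaglandin D synthase, stood at 89.0, 175 and 42.2 CPM against 31.8, 65.7 and 23.2 CPM. Mmp14, a membrane-bound matrix metalloproteinase, was not among the given genes but was known from earlier results of these data. It stood at 118, 106.5 and 35.9 CPM against 55.5, 50.1 and 18.1 CPM.

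In the 98 Spic-positive cells of normal lung Il10 was nearly absent, with 2 UMIs, both in a single cell, and levels of 4.76, 0 and 0 CPM. Hpgds stood at 4.76, 8.71 and 18.3 CPM in Spic-positive and 2.24, 3.51 and 5.45 CPM in Spic-negative cells of normal replicates 1, 2 and 3, higher with Spic in each but on 2, 2 and 5 UMIs. Tnip3 stood at 45.2, 74.0 and 55.0 CPM against 37.4, 40.5 and 61.2 CPM. The Spic-positive values of Hpgds and Tnip3 in normal lung lay below those of every AML library. Hmox1, by contrast, stood at 450, 248 and 183 CPM in the Spic-positive cells of normal replicates 1, 2 and 3, a range that overlaps the 201 to 593 CPM of AML lung, against 41.2, 58.7 and 45.4 CPM in Spic-negative cells. Hmox1 was detected in 19, 10 and 12 of those cells, so its normal values rest on few cells.

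**Figure D2:**
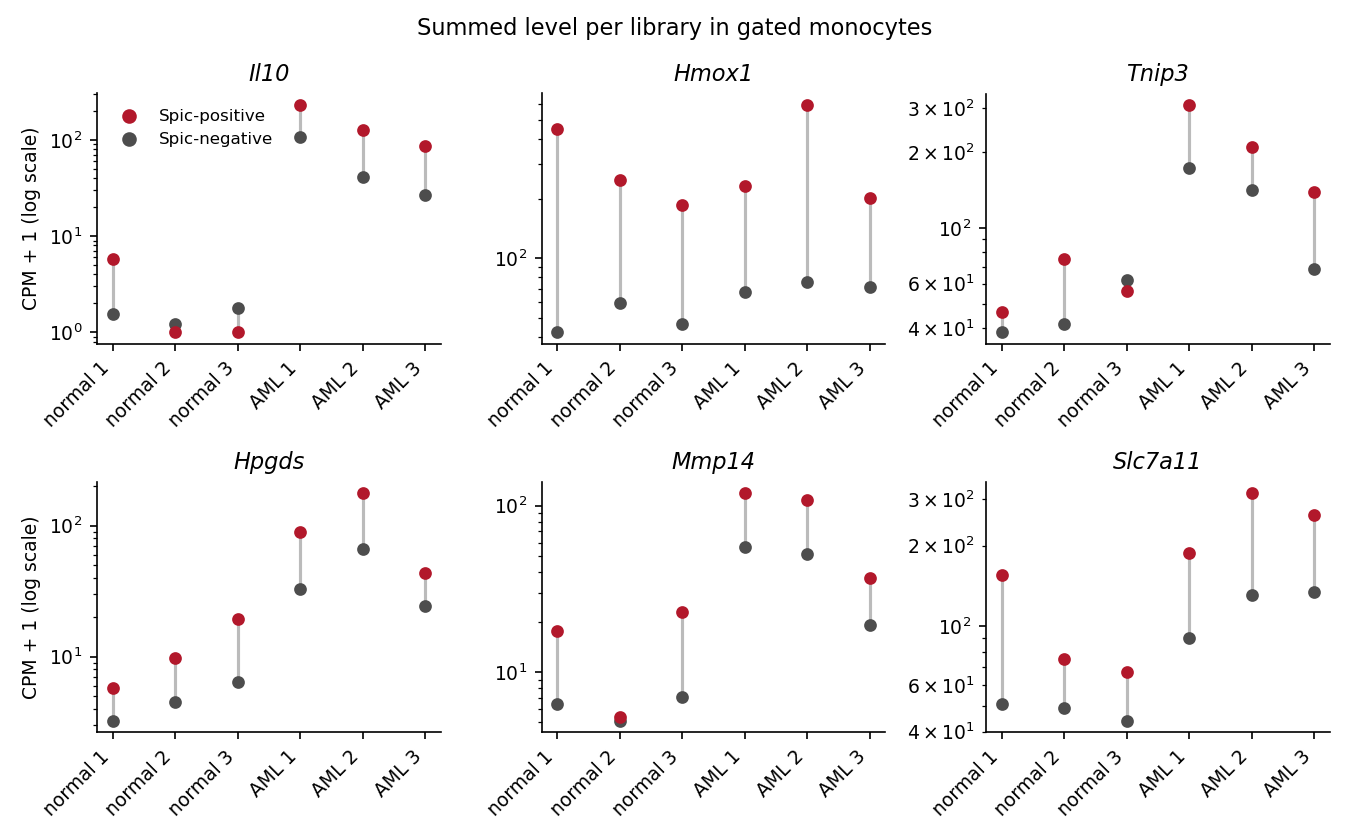
CPM plus 1 (y axes, log scale, ranges differ) of 6 genes in the Spic-positive (red) and Spic-negative (grey) gated cells of each library (x axis), joined by a line. Il10, Hpgds and Mmp14 are high in AML lung in both classes and higher in the Spic-positive class, while Hmox1 reaches 450 CPM in the Spic-positive cells of normal replicate 1 as well.

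In each AML library Hmox1 and Il10 were highest in the cells with the most Spic UMIs. In AML replicate 2 Hmox1 stood at 75.2, 174, 438 and 1449 CPM in gated cells with 0, 1, 2 and 3 or more Spic UMIs. In AML replicate 1 it stood at 66.6, 152, 150 and 341 CPM, and in AML replicate 3 at 70.7, 160, 281 and 563 CPM. Il10 went from 106.3 to 179, 163 and 311 CPM in AML replicate 1, from 40.1 to 72.6, 89.3 and 242 CPM in AML replicate 2, and from 25.7 to 55.9, 113 and 413 CPM in AML replicate 3. Cells with more Spic UMIs were also deeper, with medians of 10043.5, 10686, 11068.5 and 11381 UMIs over the 4 steps in AML replicate 1, 4666, 5517, 6422 and 7143 in AML replicate 2 and 1185, 1383, 1583 and 1830 in AML replicate 3, although CPM is scaled to depth. In normal replicate 1 Hmox1 stood at 41.2, 133.4, 187 and 1038 CPM over the 4 steps, on 13, 6 and 11 Spic-positive cells. It stood at 58.7, 318, 26.2 and 186 CPM in normal replicate 2, on 18, 4 and 3 such cells. In normal replicate 3 it stood at 45.4, 164.5, 30.8 and 534 CPM, on 32, 7 and 4. Hmox1 was thus highest at the last step in normal replicates 1 and 3 and not in normal replicate 2, on few cells in each. The last step of AML replicate 3 holds 22 cells.

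Single cells did not all carry the set. Il10 was detected in 42.4%, 19.9% and 7.40% of Spic-positive cells in AML replicates 1, 2 and 3, and Hmox1 in 55.6%, 46.6% and 16.9%. Of the 4 genes Il10, Hmox1, Tnip3 and Hpgds, 2 or more were detected in 68.1%, 52.4% and 7.97% of Spic-positive and in 37.6%, 20.6% and 2.19% of Spic-negative cells. All 4 were detected in 73, 53 and 0 cells. In normal lung 2 or more were detected in 16.7%, 16.0% and 9.30% of Spic-positive and 4.27%, 2.95% and 2.08% of Spic-negative cells. After thinning to 1000 UMIs, Il10 was detected in 16.5%, 8.04% and 5.46% of Spic-positive and in 8.18%, 3.42% and 1.73% of Spic-negative cells, and Hmox1 in 13.4%, 20.2% and 11.7% against 5.28%, 6.10% and 5.98%. The thinning left out 0, 36 and 142 Spic-positive and 4, 488 and 3833 Spic-negative cells below that depth. At that depth Il10 was found in 0 of 233, 1 of 380 and 4 of 102 T cells and Hmox1 in 0, 1 and 0 of them, so in AML replicate 3 the Il10 share of T cells, 3.92%, lies close to the 5.46% of Spic-positive cells. After thinning to 2000 UMIs, Il10 was in 23.4%, 13.04% and 3.25% of Spic-positive against 10.7%, 4.78% and 3.04% of Spic-negative cells, so no difference was seen in AML replicate 3, where 154 Spic-positive cells were that deep. Hmox1 was then in 19.5%, 29.2% and 15.6% against 9.79%, 10.3% and 10.8%. With 5 or more marker genes and all UMIs, Hmox1 in AML replicate 3 stood at 92.3 CPM in 119 Spic-positive cells and at 70.2 CPM in Spic-negative cells.

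Which other genes set Spic-positive cells apart was tested on UMIs summed per library and class in the 3 AML libraries, with the library as a block. Of 12591 genes tested, 936 were higher (7.43%) and 917 lower (7.28%) in Spic-positive cells by edgeR's quasi-likelihood test with Benjamini-Hochberg adjustment. Without the given markers, Itga9 and Ccl4 had the largest increases among the genes that the naming rule took. Itga9, an integrin alpha chain, stood at 66.3, 101 and 44.3 CPM in Spic-positive and 18.2, 28.5 and 20.2 CPM in Spic-negative cells (log2 change 1.83, SE 0.10, adjusted p = 1.95e-06). Ccl4, an inflammatory chemokine, stood at 566, 418 and 474 CPM against 157, 134 and 234 CPM (1.62, SE 0.12, adjusted p = 8.19e-06). All Spic-positive values of Itga9 and Ccl4 lay above all Spic-negative values.

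The related chemokine gene Ccl3 rose by 1.23 on the log2 scale (SE 0.10), from 112, 79.8 and 186 CPM to 274, 206 and 297 CPM. Slamf7, a self-binding receptor of the SLAM family, rose by 1.41 (SE 0.10) and the Fc receptor-like gene Fcrl5 by 1.37 (SE 0.08), to 74.1, 35.4 and 51.7 CPM from 30.7, 13.8 and 21.7 CPM. Fcrl5 is also a B cell gene, and B cells of the AML libraries held 61.2, 70.4 and 122 CPM. Fnip2, a folliculin partner in nutrient sensing, rose by 1.34 (SE 0.09), the membrane protein gene Basp1 by 1.28 (SE 0.13), the formin gene Fmnl2 by 1.28 (SE 0.06) and the polo-like kinase gene Plk2 by 1.22 (SE 0.09). Each of these was higher in Spic-positive cells of all 3 AML libraries, which the naming rule required.

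Target genes of NRF2 rose together. Of 19 tested, 17 were higher and 0 lower, and the 2 others, Gsr and Tkt, had log2 changes of 0.08 (SE 0.03, adjusted p = 0.139) and 0.01 (SE 0.04, adjusted p = 0.965). The median log2 change was 0.53, beside -0.01 over all genes tested. In every AML library 17 of the 19 (89.5%) had a higher level in Spic-positive cells, beside 12.9% of all genes tested. The count was 14 with DESeq2, 15 with a gate of 5 or more marker genes, and 16, 12 and 16 without AML replicates 1, 2 and 3.

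Among NRF2 targets the cystine importer gene Slc7a11 showed the smallest p. It stood at 187, 313 and 260 CPM in Spic-positive cells of AML replicates 1, 2 and 3 and at 88.6, 129 and 133 CPM in Spic-negative cells (log2 change 1.20, SE 0.06, adjusted p = 1.95e-06), so the groups did not overlap. With 5 or more marker genes, however, it stood at 110 CPM in Spic-positive and 105 CPM in Spic-negative cells of AML replicate 3, against 176 and 73.9 CPM in AML replicate 1 and 292 and 107 CPM in AML replicate 2. Genes for making glutathione rose too. Gclc, the catalytic subunit of the first enzyme of that path, stood at 81.9, 78.2 and 68.6 CPM against 39.9, 42.6 and 53.4 CPM (0.94, SE 0.09). Gclm, the modifier subunit, stood at 37.9, 78.8 and 19.0 CPM against 18.4, 19.1 and 18.2 CPM (1.54, SE 0.21), and in AML replicate 3 the classes hardly differed.

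Genes of the thioredoxin and peroxiredoxin systems, which reduce oxidised proteins and peroxides, followed. Txnrd1, the thioredoxin reductase, stood at 241, 264 and 200 CPM against 148, 156 and 132 CPM (0.77, SE 0.05), Prdx1 at 612, 892 and 437 CPM against 414, 451 and 306 CPM (0.78, SE 0.08), and Srxn1, which repairs peroxiredoxins, at 14.7, 18.4 and 13.7 CPM against 6.27, 5.40 and 4.52 CPM (1.60, SE 0.17). Txn1, thioredoxin itself, rose by 0.40 (SE 0.05). Sqstm1, the autophagy receptor p62, stood at 388, 458 and 336 CPM against 238, 270 and 234 CPM (0.75, SE 0.05). For Txnrd1, Srxn1 and Sqstm1 no Spic-negative library reached a Spic-positive one. Nqo1, a quinone reductase, rose by 1.17 (SE 0.24) from low levels of at most 6.03 CPM in Spic-negative cells. Nfe2l2, the gene of NRF2 itself, stood at 833, 793 and 810 CPM against 772, 766 and 699 CPM (0.18, SE 0.04, adjusted p = 0.00625), and the repressor gene Bach1 changed by 0.05 (SE 0.06, adjusted p = 0.649).

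NRF2 binds the antioxidant response element, whose core TGACNNNGC was searched on both strands of RefSeq promoter windows that reach 250 bases before and 50 after the start, in GRCm38.p6. Of the 17 NRF2 targets that rose, 16 had a window and 7 of those (43.8%) held the core, beside 14.0% of 27025 genes with a window, 17.0% of the tested genes and 19.6% of the genes higher in Spic-positive cells. The list was drawn up from genes known as NRF2 targets, so the share describes the list and is no result of these data. The AP-1 core TGACTCA can lie within such a match, and did so in 1 of the 7, that of Prdx1. Windows around the core are shown for the 5 genes whose match lies before the start, to let the element be read beside the levels above. They follow the gene's strand, with the matched letters in capitals.
G6pdx, chrX:74428899-74428967, minus strand: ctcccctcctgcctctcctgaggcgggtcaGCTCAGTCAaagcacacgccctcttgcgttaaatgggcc
Gclm, chr3:122245393-122245461, plus strand: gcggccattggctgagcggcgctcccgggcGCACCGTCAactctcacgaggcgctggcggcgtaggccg
Mafg, chr11:120633731-120633797, minus strand: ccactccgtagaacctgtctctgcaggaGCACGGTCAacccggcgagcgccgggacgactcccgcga
Prdx1, chr4:116685436-116685504, plus strand: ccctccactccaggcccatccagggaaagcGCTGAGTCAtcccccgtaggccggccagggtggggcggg
Txnrd1, chr10:82859084-82859152, plus strand: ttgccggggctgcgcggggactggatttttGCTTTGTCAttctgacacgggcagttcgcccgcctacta
All 5 matches lie on the strand opposite the gene, so the core appears as its reverse complement, at 49 bases before the start in G6pdx, 126 in Gclm, 214 in Mafg, 125 in Prdx1 and 84 in Txnrd1. Of the genes shown, Gclm had a log2 change of 1.54, Prdx1 of 0.78, Txnrd1 of 0.77, Mafg of 0.47 and G6pdx of 0.20.

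Genes of haem breakdown and iron storage rose in part. Of 26 tested, 9 were higher, Hmox1 among them, and 4 lower, with a median log2 change of 0.08. Fth1 and Ftl1, the ferritin chains that store iron, stood at 6682, 7746 and 5558 CPM against 3915, 3768 and 3839 CPM (log2 change 0.85, SE 0.07) and at 5794, 6804 and 4020 CPM against 4150, 4445 and 3141 CPM (0.55, SE 0.04). Fth1 thus did not overlap between the classes, while Ftl1 in AML replicate 3 stood below the Spic-negative cells of the other AML libraries.

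The biliverdin reductase genes Blvrb and Blvra, which act after Hmox1 in haem breakdown, rose by 0.75 (SE 0.07) and 0.61 (SE 0.09), although Blvra stood at 52.8 CPM in Spic-positive and 54.9 CPM in Spic-negative cells of AML replicate 3. Cp, the ferroxidase ceruloplasmin, rose by 1.04 (SE 0.08) and the iron transporter genes Slc11a2 and Slc11a1 by 0.90 (SE 0.12) and 0.49 (SE 0.07). Trf, which carries iron in plasma, fell by 0.58 on the log2 scale, the haem exporter gene Flvcr1 by 0.34 and Bach2 by 0.26. Slc40a1, the iron exporter ferroportin of red pulp macrophages, was low, at 2.76, 5.36 and 3.17 CPM against 1.87, 0.976 and 8.77 CPM (1.02, SE 0.48, adjusted p = 0.204).

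Markers of splenic red pulp macrophages were not all present. Of the 12 listed, Spic included, 8 were tested and 3 were higher, Pparg, Hmox1 and Adgre1, and 1 lower, Mrc1. Cd163, the haemoglobin receptor, was at 0, 0 and 1.06 CPM and Vcam1 at 0.512, 0.654 and 0 CPM in Spic-positive cells, both too low to test.

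**Figure D3:**
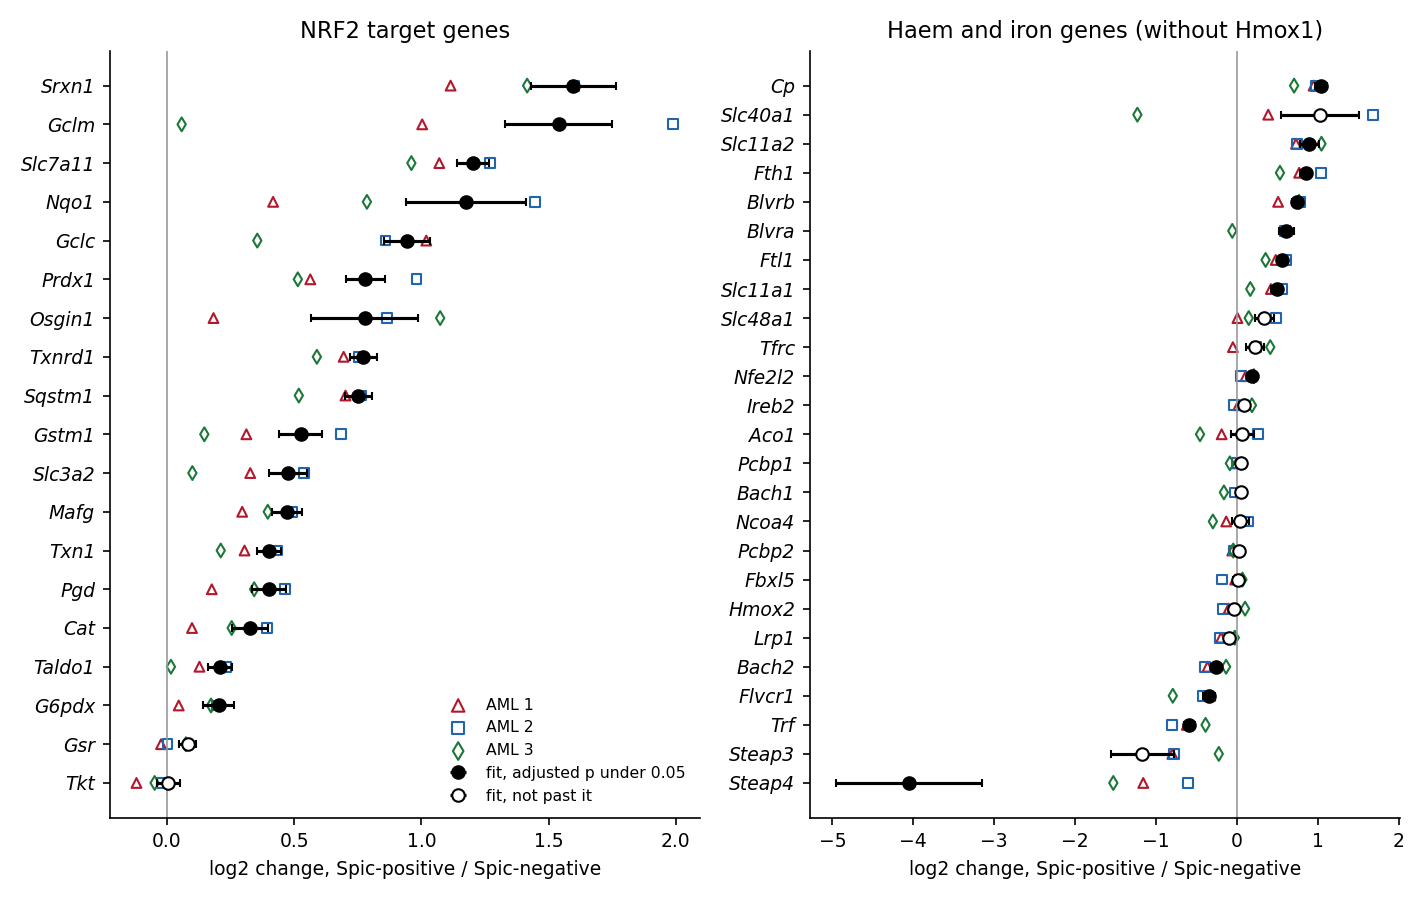
Log2 change between Spic-positive and Spic-negative cells (x axes) for the tested NRF2 targets and the tested haem and iron genes other than Hmox1 (y axes), with the edgeR fit and its SE as circles and the ratio within each AML library as open symbols. Of the NRF2 targets 17 of 19 are past the threshold, all to the right of 0, whereas among iron genes Fth1 and Cp lie to the right and Trf and Bach2 to the left. A Steap4 fit far to the left rests on low counts.

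Of 20 tested regulators of NF-kB, the transcription factor family of inflammatory signalling, 11 were higher, Tnip3 among them, and 1 lower, with a median of 0.21. Tnip1, like Tnip3 a partner of A20, stood at 307, 250 and 188 CPM against 228, 168 and 126 CPM (log2 change 0.59, SE 0.05), and Ikbke, an inducible kinase, at 210, 130 and 92.9 CPM against 145, 91.5 and 68.6 CPM (0.58, SE 0.05). Both were higher in Spic-positive cells within each library, while the classes overlapped between libraries. Nfkbiz rose by 0.36 (SE 0.04) and the kinase gene Ikbkb fell by 0.18.

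Of 19 inflammatory cytokine and chemokine genes 5 were higher and 3 lower. Sod2, the mitochondrial superoxide dismutase, rose by 0.73 (SE 0.05), Tnf by 0.52 (SE 0.08) and Il1b by 0.26 (SE 0.08, adjusted p = 0.0412), although in AML replicate 3 Il1b stood at 727 CPM in Spic-positive and 797 CPM in Spic-negative cells. Ptgs2, the inducible cyclooxygenase, fell by 0.84 on the log2 scale.

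Of 20 genes of IL-10 signalling and suppression 9 were higher, Il10 among them, and 5 lower. Cd274, the gene of PD-L1, stood at 448, 597 and 311 CPM against 296, 392 and 192 CPM (log2 change 0.69, SE 0.04, adjusted p = 4.22e-06). Siglece, an inhibitory sialic acid receptor, rose by 0.75 (SE 0.06), the interleukin 1 receptor antagonist gene Il1rn by 0.92 (SE 0.10) and Socs3 by 0.42 (SE 0.06), while the checkpoint gene Vsir fell by 0.36 on the log2 scale and Tgfb1 by 0.25.

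Surface receptors rose more often than they fell. Of 24 genes of Fc gamma, Siglec, CD300 and C-type lectin receptors 12 were higher and 4 lower. Clec4n, the fungal receptor Dectin-2, stood at 155, 182 and 160 CPM against 82.1, 78.5 and 110 CPM (log2 change 1.04, SE 0.09), with no overlap. The receptor genes Lilr4b and Lilrb4a rose by 0.83 (SE 0.06) and 0.65 (SE 0.05), and Clec4e, the receptor Mincle, by 0.62 (SE 0.05). Trem2 fell by 1.80 on the log2 scale. Of 21 Toll-like receptor genes and adaptors 7 were higher, Ly96 by 0.61 (SE 0.07) and the brake gene Irak3 by 0.48 (SE 0.06), and 2 were lower, Cd14 among them (-0.23, SE 0.07).

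Of 26 lysosomal genes 11 were higher and 1 lower, with a median of 0.17. Lgmn, an asparaginyl endopeptidase, stood at 454, 521 and 449 CPM against 267, 289 and 279 CPM (log2 change 0.85, SE 0.05, adjusted p = 2.26e-06), with no overlap, and Lipa, the lysosomal acid lipase, rose by 0.68 (SE 0.10). Of 23 lipid genes 9 were higher and 3 lower. Pparg, the lipid-sensing nuclear receptor, which is also a red pulp and alveolar macrophage regulator, stood at 1874, 1645 and 1851 CPM against 1095, 962 and 1133 CPM (0.82, SE 0.03, adjusted p = 5.36e-07). Nr1h3, the oxysterol receptor LXR alpha, rose by 0.77 (SE 0.06) and the scavenger receptor gene Marco by 1.17 (SE 0.16).

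Of 35 transcription factors of monocyte and macrophage fate 12 were higher and 9 lower. Id2 rose by 0.85 (SE 0.07), from 425, 210 and 469 CPM to 650, 438 and 743 CPM, Tcf7l2 by 0.49 (SE 0.05) and Zeb2 by 0.44 (SE 0.04). The macrophage factor gene Maf rose by 0.69 (SE 0.09), while Fosl2 fell by 0.50 on the log2 scale and Mef2c by 0.41. Of 19 prostaglandin and leukotriene genes 4 were higher, Hpgds among them, and 4 lower, Alox5ap by 0.42 on the log2 scale. Of 12 matrix metalloproteinase genes and inhibitors 2 were higher, Mmp14 and Adam17, and 5 lower.

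Other gene groups held few calls or calls in both directions. Of 32 oxidative phosphorylation genes 1 was higher and 0 lower, of 17 unfolded protein response genes 2 were higher and 0 lower, of 23 glycolysis genes 2 were higher and 4 lower, and of 13 complement genes 2 and 2. None of 17 cholesterol synthesis genes passed by edgeR or DESeq2, with 0 higher and 2 lower at an unadjusted p under 0.05. Of 24 immediate early and heat shock genes, which also mark stress during digestion, 4 were higher and 7 lower, Fos, Junb and Egr1 among the lower. Of 23 adhesion and trafficking genes 4 were higher and 7 lower. Median mitochondrial shares were 1.42%, 1.45% and 1.08% of UMIs in Spic-positive and 1.48%, 1.49% and 1.13% in Spic-negative cells of AML replicates 1, 2 and 3.

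**Figure D4:**
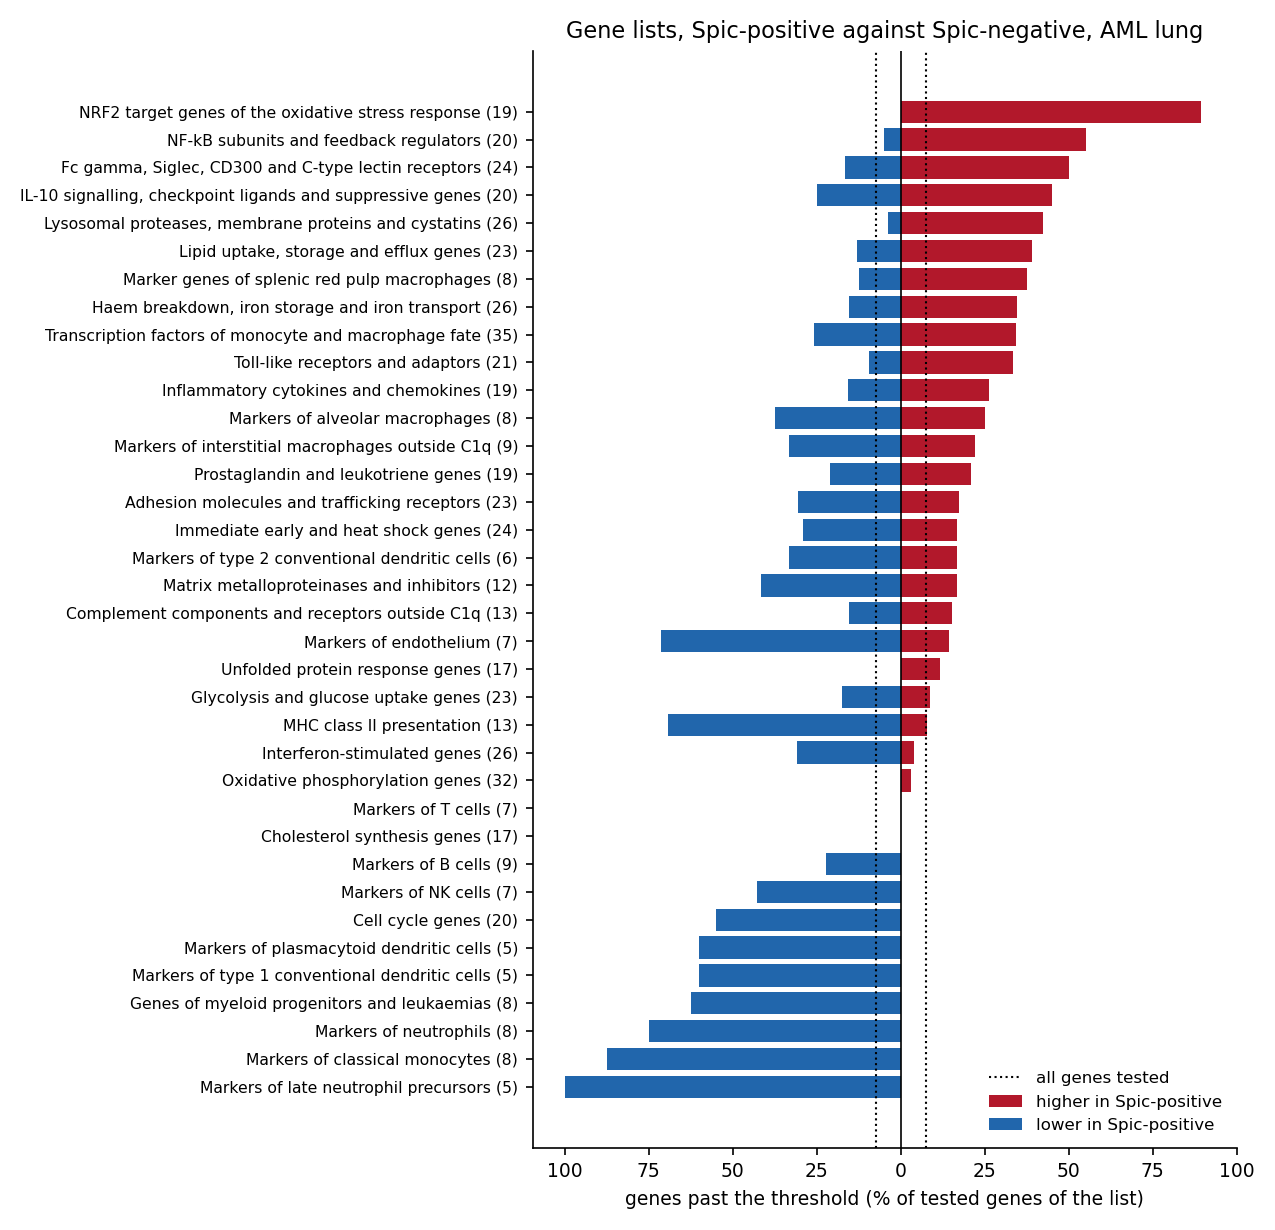
For each gene list with 5 or more tested genes (y axis, number tested in brackets), the share of tested genes higher (red, to the right) and lower (blue, to the left) in Spic-positive cells of AML lung (x axis, percent), with dotted lines at the 7.43% and 7.28% of all genes tested. NRF2 targets reach 89.5% to the right, and the lists of classical monocyte and neutrophil markers have bars only to the left. The counts include the given markers Il10, Hmox1, Tnip3 and Hpgds, and also Mmp14, where a list holds them.

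The largest decreases were in genes of classical monocytes and granulocytes. Ccr2, the receptor that draws classical monocytes from the marrow, stood at 10.7, 22.1 and 77.1 CPM in Spic-positive and 66.6, 103 and 111 CPM in Spic-negative cells of AML replicates 1, 2 and 3 (log2 change -1.99, SE 0.22, edgeR adjusted p = 0.000161). Ly6c2, the classical monocyte antigen, stood at 29.8, 80.9 and 122 CPM against 133, 257 and 162 CPM (-1.55, SE 0.19). Both were lower within each library, which the naming rule required, and the gap was smallest in AML replicate 3. Vcan (-2.18, SE 0.25), F13a1 (-2.14, SE 0.29), Fn1 (-1.73, SE 0.19), Thbs1 (-1.56, SE 0.20) and Stxbp6 (-1.44, SE 0.20) fell as well. So did the granule and alarmin genes Ngp (-4.58, SE 0.51), S100a8 (-2.20, SE 0.38) and S100a9 (-1.81, SE 0.43), the histidine decarboxylase gene Hdc (-1.74, SE 0.26) and the interleukin 1 decoy receptor gene Il1r2 (-1.48, SE 0.29). Ngp stood at 126 CPM in Spic-negative cells of AML replicate 1 and at 2.27 CPM in those of AML replicate 2.

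As groups, markers of these cells were lower as well. Of 8 classical monocyte markers 7 were lower, with a median of -1.70, and their summed level lay between 239.6 and 1070 CPM in Spic-positive, 642.5 and 1478 CPM in Spic-negative and 5222 and 7617 CPM in classical monocytes of AML lung. Of 8 neutrophil markers 6 were lower, at 145.4 to 1659 CPM against 345.7 to 2681 CPM. All 5 late neutrophil precursor markers were lower, Camp, Ltf and Chil3 among them. Of 8 tested genes of myeloid progenitors and leukaemias 5 were lower, at 19.2 to 45.4 CPM against 51.3 to 90.5 CPM. With a gate of 5 or more marker genes, chosen after seeing the data, 7 of 8 classical monocyte markers were still lower but the median became -0.66. Ccr2 then stood at 5.61, 13.3 and 86.5 CPM against 16.7, 26.5 and 72.1 CPM, so AML replicate 3 turned. How far cells near the edge of the gate take part in these decreases was not tested.

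Most lists of markers of other cell types held more lower than higher calls, but several had few calls. Of all genes tested 7.43% were called higher and 7.28% lower. Of 7 endothelial markers 5 were lower and 1 higher, Pecam1 (0.53, SE 0.05), which nonclassical monocytes also express. Of 9 interstitial macrophage markers outside C1q 2 were higher, Ms4a7 among them, and 3 lower. Of 8 alveolar macrophage markers 2 were higher, Marco and Ear2, and 3 lower. Type 1 and type 2 dendritic cell markers had 3 of 5 and 2 of 6 lower, with the given marker Tnip3 higher in the latter, plasmacytoid ones 3 of 5, B cell ones 2 of 9, NK cell ones 3 of 7 and T cell ones none of 7 by edgeR or DESeq2, with 1 lower at an unadjusted p under 0.05. Of the mast cell and platelet lists 1 gene each was tested, with Gata2 lower. The erythroid marker tested, Hba-a1, was higher, and erythroid transcripts in Spic-positive cells came from AML replicate 3. There Hbb-bs, a beta globin gene, stood at 585 CPM, from 554 UMIs in 15 cells, against 0 CPM in AML replicates 1 and 2. B cells of that library held 1667 CPM.

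The MHC class II genes, whose products show antigen to CD4 T cells, fell with the gate of 2 or more marker genes. Of 13 tested 9 were lower and 1 higher, the costimulatory gene Cd86, with a median of -0.64. H2-DMa, a peptide loading chaperone, stood at 26.4, 45.1 and 61.2 CPM against 47.4, 75.7 and 74.7 CPM (log2 change -0.65, SE 0.08), and Cd74, the invariant chain, at 388, 616 and 1269 CPM against 693, 862 and 1243 CPM (-0.38, SE 0.11, edgeR adjusted p = 0.0330). The count of lower genes became 1 with 5 or more marker genes, 3 with 3 or more and 2 with DESeq2. Of 26 interferon-stimulated genes 8 were lower, Oasl2 by 0.70 and Ifitm3 by 0.22 on the log2 scale, and Ifit1 was higher. Of 20 cell cycle genes 11 were lower and 0 higher, Mki67 by 1.28 on the log2 scale, and 2 of 14 were lower and 1 higher with 5 or more marker genes.

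Spic-positive cells of the 2 lungs were compared after the normal libraries were seen to hold 30, 25 and 43 of them, so this comparison was added with the data in view. Of 6758 genes tested, AML lung had 51 higher (0.755%) and 81 lower (1.20%) by edgeR. Of the given markers, Il10, Hpgds and Tnip3 stood higher in AML lung and Hmox1 overlapped between the lungs, as described above. Mmp14 stood higher in AML lung too. Pecam1 stood at 1452, 1398 and 1069 CPM in AML replicates 1, 2 and 3 and at 376, 187 and 308 CPM in the normal replicates (log2 change 2.12, SE 0.24, adjusted p = 0.0185). Ikbke stood at 210, 130 and 92.9 CPM against 23.8, 17.4 and 25.7 CPM (2.66, SE 0.38) and Cp at 66.2, 51.9 and 30.6 CPM against 2.38, 8.71 and 11.003 CPM (2.92, SE 0.54). No normal library reached an AML library for these 3 genes, which the naming rule required.

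Marco held no UMI in the Spic-positive cells of normal lung and stood at 38.8, 56.5 and 38.0 CPM in AML lung. The formyl peptide receptor gene Fpr1 rose by 3.39 on the log2 scale (SE 0.64), Fcrl5 by 3.25 (SE 0.69), the noncoding RNA gene Airn by 2.29 (SE 0.43) and Siglece by 2.14 (SE 0.46). Fpr1 and Fcrl5 each held no UMI in 1 normal library. The NRF2 target Txn1, the thioredoxin gene, stood at 662, 964 and 372 CPM against 186, 157 and 154 CPM (1.97, SE 0.31). It was the 1 of 17 tested NRF2 targets past the threshold by edgeR. The 17 had a median log2 change of 0.55, with 8 higher and 1 lower at an unadjusted p under 0.05. DESeq2 called 3 of them higher and 0 lower. Pparg stood at 1874, 1645 and 1851 CPM against 962, 967 and 1067 CPM (0.81, SE 0.16, adjusted p = 0.0383). Hmox1 changed by 0.17 (SE 0.42) and Slc7a11 by 1.28 (SE 0.31, adjusted p = 0.0702).

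MHC class II genes formed the largest block of decreases in this comparison among the lists, with 7 of 11 lower and 0 higher and a median of -2.002, beside -0.01 over all genes tested. H2-Eb1 stood at 58.7, 118 and 213 CPM in the Spic-positive cells of AML replicates 1, 2 and 3 and at 688, 562 and 1588 CPM in the normal replicates (log2 change -2.94, SE 0.49, edgeR adjusted p = 0.0235). H2-Aa changed by -2.58 (SE 0.42), H2-Ab1 by -2.56 (SE 0.50), Cd74 by -2.37 (SE 0.42) and H2-DMb1 by -2.002 (SE 0.43). Each had no overlap between the lungs, which the naming rule required. With 5 or more marker genes this no longer held, since the 21 Spic-positive cells of normal replicate 1 then had H2-Eb1 at 41.1 CPM, below the 55.5, 89.8 and 219 CPM of the AML replicates, and H2-Aa at 144 CPM, within the AML range. The high values of that library thus rest on Spic-positive cells with fewer marker genes, while normal replicates 2 and 3 kept H2-Eb1 at 707.5 and 1298 CPM. Hspa1a, an inducible chaperone gene that also marks stress, fell by 3.39 on the log2 scale, Abca9 by 3.28, Adgrl3 by 2.81, Sulf2 by 2.44, Tmcc3 by 2.26, Runx3 by 2.25 and Amz1 by 2.10.

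The normal side of that comparison is thin. Without normal replicate 1, 2 or 3 edgeR called 0 genes, with 1011, 1103 and 1037 at an unadjusted p under 0.05, and without AML replicates 1, 2 and 3 it called 20, 40 and 309. With 5 or more marker genes it called 0, with 830 at an unadjusted p under 0.05, where normal replicate 2, with 16 Spic-positive cells, was left out. DESeq2 called 267 over all libraries. Spic-negative cells differed between the lungs in many of the same genes. Siglece, Pecam1, Cp, Marco, Txn1, Pparg and Ikbke were past the threshold and higher in AML lung there too. Il10, Hpgds and Mmp14 stood higher in AML lung there as well. They were chosen with earlier results of these data known, so this is a description. Tnip3 was not past the threshold. Ikbke stood at 145, 91.5 and 68.6 CPM there in AML lung and 16.5, 13.1 and 9.57 CPM in normal lung. In these cells 4 of 19 tested NRF2 targets were higher and 0 lower. Among 13 MHC class II genes 0 were higher and 1, Ciita, was lower. All 13 had log2 changes below 0 in these cells, with a median of -0.57 beside 0.03 over all genes tested. Of 12977 genes tested in Spic-negative cells, AML lung had 130 higher (1.0%) and 220 lower (1.7%).

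Whether the step from Spic-negative to Spic-positive cells differed between the lungs was tested as an interaction over all 6 libraries. Of 12685 genes, 21 were higher (0.166%) and 25 lower (0.197%), where higher means a step more upward in AML lung. None of 19 NRF2 targets passed by edgeR or DESeq2, with 1 higher and 3 lower at an unadjusted p under 0.05 and a median of -0.03. Nor did any of 25 haem and iron genes, with 1 higher and 3 lower, so a difference between the lungs in these steps was not detectable with 98 normal cells. For Hmox1 the interaction was -0.48 (SE 0.37, adjusted p = 0.715), for Slc7a11 -0.01 (SE 0.22) and for Ccl4 0.01 (SE 0.24). Plk2 was higher with Spic in each AML library and lower with it in 2 of 3 normal ones (interaction 1.61, SE 0.33, adjusted p = 0.0418), with 21.4, 13.1 and 40.3 CPM in Spic-positive and 33.0, 38.2 and 33.5 CPM in Spic-negative cells of the normal replicates.

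MHC class II genes went in opposite directions in the lungs with that gate. Of 13 tested 6 were lower in the interaction, with a median of -1.33 beside 0.05 over all genes tested. Cd74 stood at 2765, 3109 and 5560 CPM in Spic-positive and 1198, 2200 and 2620 CPM in Spic-negative cells of normal replicates 1, 2 and 3 (interaction -1.37, SE 0.17, edgeR adjusted p = 0.000828). It was thus higher with Spic in each normal library, whereas in AML replicates 1 and 2 it was lower and in AML replicate 3 level. With 5 or more marker genes 1 of the 13 passed, with a median of -0.97, in a fit that left out normal replicate 2 for its 16 Spic-positive cells. Cd74 then stood at 754, 3682 and 4513 CPM in 21, 16 and 23 Spic-positive cells of normal replicates 1, 2 and 3. In Spic-negative cells of those replicates it stood at 812, 1717 and 1503 CPM, so normal replicate 1 no longer followed the others. Markers of other cells rich in MHC class II did not all move with it. The 5 type 1 dendritic cell markers summed to 287.4 to 364.3 CPM in Spic-positive and 369.6 to 411.2 CPM in Spic-negative cells of normal lung, the 6 type 2 markers to 87.1 to 165 CPM against 91.2 to 144 CPM, the 9 B cell markers to 81.0 to 118 CPM against 111 to 190 CPM and the 12 interstitial macrophage markers to 2046 to 3493 CPM against 2167 to 2913 CPM. Their part in the result was not tested.

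**Figure D5:**
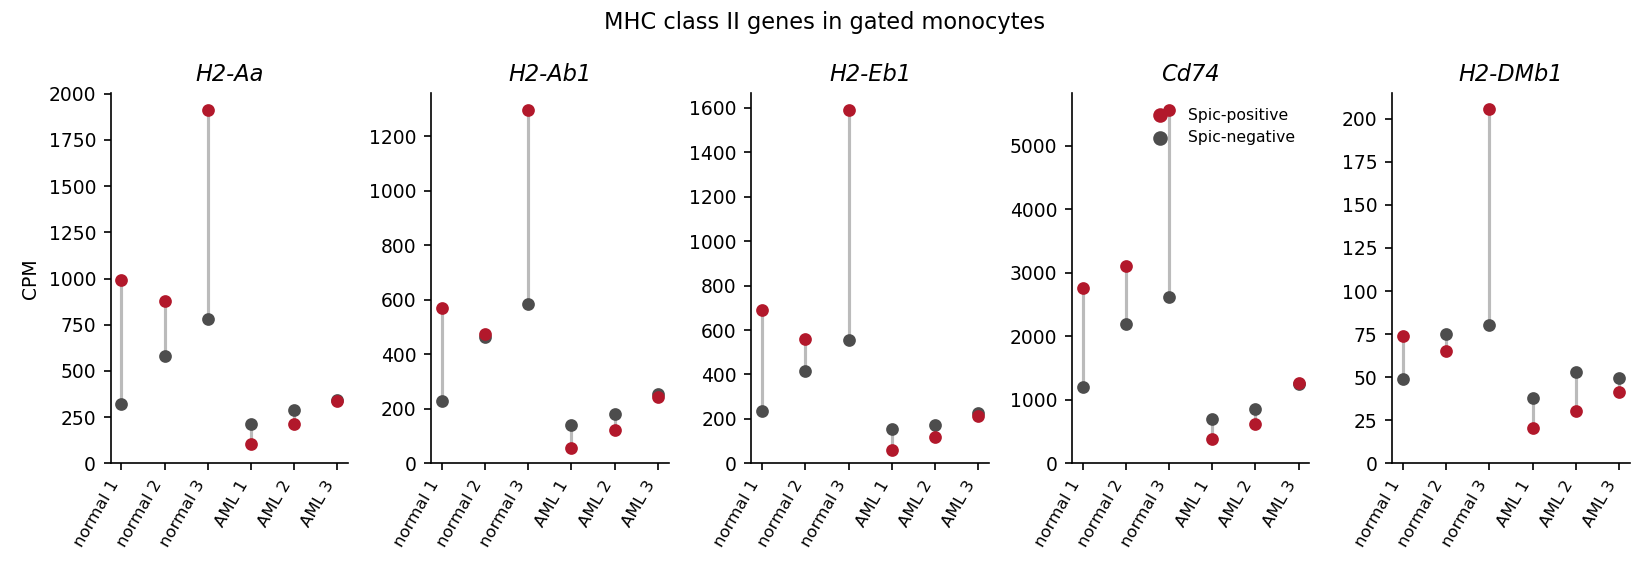
CPM (y axes, from 0, ranges differ) of 5 MHC class II genes in the Spic-positive (red) and Spic-negative (grey) gated cells of each library (x axis), joined by a line. In normal lung the Spic-positive point of Cd74 is the higher in each library, up to 5560 CPM, and in AML replicates 1 and 2 it is the lower, at 388 and 616 CPM.

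Macrophages rich in C1q, picked by 10 or more C1q UMIs and fewer than 2 gate genes, could not be tested against Spic-positive cells, since they numbered 8, 13 and 47 in AML replicates 1, 2 and 3. Among their 47 cells in AML replicate 3, 3 held a Spic UMI (6.38%, exact binomial 95% interval 1.34% to 17.5%). Spic-positive cells with 2 or more gate genes and 3 or more C1q UMIs, which lie outside the rule, held 308, 831 and 189 CPM of Hmox1 and 155.8, 15.1 and 0 CPM of Il10 in 15, 32 and 17 cells. Itga9 there stood at 471, 705 and 833 CPM, above the 66.3, 101 and 44.3 CPM of Spic-positive cells inside the rule, a comparison without a test.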

How the data were processed

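Single-cell libraries of CD45-positive lung cells were made with 10x 3' chemistry, per the labels, and the deposited counts are UMIs per gene and barcode from Cell Ranger 7.0.0 with mm10, per the submitters' processing notes. Cells with at least 500 UMIs, 200 genes and under 10% mitochondrial UMIs were kept, 71634 of 73095 barcodes. The members and lists were chosen with earlier results of these data known. UMIs were summed per library and class (at least 20 cells) and tested with edgeR 4.0.16 (TMM, low counts filtered, quasi-likelihood test, Benjamini-Hochberg adjusted p under 0.05) in R 4.3.3, without the 17 genes of the rule. The library was a block between Spic classes, since both classes come from 1 library. Replicate numbers were not used to pair normal with AML libraries. DESeq2 1.42.0, other gates and filters, and leaving out each library were alternatives. In simulated counts of 12318 genes the test between Spic classes recovered 100% of genes changed 2-fold, and between lungs in Spic-positive cells (6513 genes) 48%. The changes were placed only on genes with a mean CPM above 5 on the log2 scale, alike in every library, with spread from the fitted trend. Recovery of genes with a mean below that level was not tested. Genes were named by a rule: the 12 largest increases and decreases past the threshold with average log2 CPM of at least 5 and the same direction in every library (between lungs, no overlap), leaving out ribosomal, mitochondrial, antigen receptor and unnamed genes, and up to 4 members with the smallest p for each of 39 lists. Other named genes were chosen after their values were seen. Doublets were scored with Scrublet in scanpy 1.11.5, and a cut of 0.231, the median over libraries with a working threshold, replaced one that marked no cell. Marked cells were kept.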

Additional observations from a re-analysis of the deposited data

Results flagged for a closer look

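In 46 genes, of which the 24 taken by the naming rule are given, the step from Spic-negative to Spic-positive cells differed between AML and normal lung by an interaction term in edgeR (adjusted p under 0.05), a comparison added after seeing the data. Values are log2 interactions, positive where the step is more upward in AML lung. Ly6a (2.84), Calcrl (1.89), Sptbn1 (1.72) and Nrp1 (1.60), which endothelial cells also express, shared a pattern. Nrp1 stood at 33.3, 65.3 and 51.3 CPM in Spic-positive and 156, 189 and 145 CPM in Spic-negative cells of normal replicates 1, 2 and 3, and at 44.3, 65.6 and 58.1 CPM against 58.3, 62.3 and 77.2 CPM in AML lung. Beside this, endothelial markers summed to 239.5 to 411.9 CPM in Spic-positive and 705.5 to 1006 CPM in Spic-negative cells of normal lung, and their part in the result was not tested.

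Rapgef5 (2.49), Lpl (2.28), Plk2 (1.61), Pltp (1.30), Pitpnc1 (0.955) and Rab31 (0.881) had a higher step in AML lung as well. Hbb-bs (16.2) and Sftpc (11.1) held no UMI in Spic-positive cells of normal lung, so their fitted values are no bound. Sftpc, a surfactant gene of alveolar epithelium, stood at 171, 214 and 123 CPM in the Spic-negative cells of normal lung.

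The MHC class II genes H2-Eb1 (-1.93), H2-Aa (-1.71), H2-Ab1 (-1.58), H2-DMb1 (-1.51) and Cd74 (-1.37) had a lower step in AML lung. So did Il21r (-1.87), Tmem176b (-1.82), Marcksl1 (-1.71), Aif1 (-1.37), Runx3 (-1.31), Bmp2k (-1.27) and Morrbid (-1.18). Aif1, a calcium-binding protein of macrophages, stood at 129, 205 and 158 CPM in Spic-positive and 69.0, 98.0 and 80.0 CPM in Spic-negative cells of normal lung, and at 40.3, 66.7 and 42.2 CPM against 58.8, 83.8 and 49.2 CPM in AML lung, so the classes stood in opposite order in the lungs.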

How the results depend on the processing

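The 1853 genes called between Spic classes became 982 with DESeq2, all 982 among the 1853, 1025 with all 6 libraries, 1051 to 1972 leaving out a library, and 0 by edgeR with no replicate block (592 at an unadjusted p under 0.05). With Spic-negative cells drawn to the same depths 1815 were called, 1631 of them shared. The 350 calls between lungs in Spic-negative cells became 1370 with DESeq2, 933 with no filter, 171 with 3 or more marker genes, 74 with stricter cell filters, and 0 to 2667 leaving out a library (0 by edgeR without any normal library, with 2008, 2124 and 2398 at an unadjusted p under 0.05, and 2667 without AML replicate 3). The 132 calls between lungs in Spic-positive cells became 267 with DESeq2, 554 with no filter, 0 with 5 or more marker genes (830 at an unadjusted p under 0.05) and 0 to 309 leaving out a library. The 46 interaction calls became 85 with DESeq2, 291 with no filter, 5 with 5 or more marker genes, 1 of them shared, and 49 to 174 leaving out a library, 174 without AML replicate 1. With 5 or more marker genes the comparison between lungs in Spic-positive cells and the interaction left out normal replicate 2, which had 16 Spic-positive cells.

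With a replicate block between lungs, 1 gene was called in Spic-negative and 203 in Spic-positive cells. Deviations from the mean of each lung were correlated between AML and normal libraries. In Spic-negative cells same-numbered libraries correlated at 0.279, -0.0294 and 0.247, and the other pairs at -0.279 to 0.112. In Spic-positive cells the values were 0.0921, 0.0431 and 0.0965 against -0.0985 to 0.00333. Whether same-numbered libraries share more than a number was not tested. Leaving out a library turned the direction between lungs in Spic-negative cells for Hdc (-0.917 to 1.561) and Il1r2 (-1.304 to 0.96), the lowest values without AML replicate 3. The interaction turned for Rapgef5 with 5 or more marker genes (-0.476). The mean Spic-positive share in AML lung lay between 11.38% and 25.42% leaving out an AML library. The cause of these changes was not tested. A cut at 2 or more Spic UMIs could not be fitted between lungs, nor could the planned comparison with C1q-rich macrophages, for lack of cells. The 98 normal Spic-positive cells and the shallow AML replicate 3 limit the precision.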
